A study of Drosophila melanogaster with 6 samples.

Results

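The microsomal cytochrome P450 genes of Drosophila melanogaster were followed in whole 1st instar larvae mutant for the histone demethylase gene Kdm4A and in their controls. Members were the genes whose symbol has the form Cyp, family number, subfamily letters and gene number, without the mitochondrial Cyp12 genes and without Cyp18a1, which encodes an enzyme of ecdysteroid breakdown. Of 11983 genes measured, 74 met this rule, each through 1 probe set that names 1 gene. A current gene table of the fly (Release 6) holds 77 genes of this form, and the remaining 3 were not analysed here. By family number, 37 members belong to the CYP3 clan (families Cyp6, Cyp9, Cyp28, Cyp308, Cyp309, Cyp310 and Cyp317), 32 to the CYP4 clan and 3 to the CYP2 clan. The other 2, Cyp49a1 and Cyp301a1, belong by family to the mitochondrial clan, so the name microsomal does not hold for them. P450 genes known by other names, such as phm, spo and spok of ecdysone synthesis, lie outside the rule.

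Cytochrome P450 enzymes are heme proteins that insert an oxygen atom into their substrates. Microsomal P450s sit in the endoplasmic reticulum and receive electrons from a reductase and, for some reactions, from cytochrome b5. In insects the CYP3 and CYP4 clans include many enzymes that act on plant toxins, insecticides and fatty acids in the midgut, Malpighian tubules and fat body, and some members have fixed tasks in hormone, cuticle or sensory development.

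The arrays compared 2 genotypes at the Kdm4A locus, with 3 arrays each. Mutant larvae carried the insertion allele dKDM4A KG04636 over the deletion ∆dKDM4A, and control larvae carried the precise excisions KG06436 and NP0618, so both groups descend from insertion lines and neither is an unmanipulated wild type. The labels do not settle whether KG04636 and KG06436 are 1 insertion or 2. Each array held RNA of 200 pooled larvae raised at 25 °C and collected about 48 after egg laying, a time whose unit the labels leave out, and the replicate numbers 1 to 3 appear in both groups. The labels call the arrays biological replicates without saying what separates them, so the p-values of the comparison by genotype alone measure the spread between these pools.

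Kdm4A had log2 values of 3.44, 3.41 and 3.29 in the mutant arrays and 5.18, 5.26 and 5.46 in the control arrays, a limma difference of -1.92 (SE 0.10, adjusted p = 0.00174). Markers of the larval tissues were present at unlike levels. The highest in the midgut list was betaTry, with a mean of 13.77. For the fat body it was apolpp with 13.58, and for the Malpighian tubules salt with 8.92. The lowest in these lists had means of 3.56, 3.94 and 4.09, below the lower quartile of all genes. The neuron marker elav lay between 8.52 and 9.41. Array medians over all probe sets lay between 5.29 and 5.37. All values below are log2 RMA values, in which a difference of 1 is a 2-fold change. In these pools of whole larvae, fewer cells of a type and less RNA per cell cannot be told apart.

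The members covered a wide part of the range of array values, but not its upper end. Their means over the 6 arrays ran from 3.05 to 11.35, beside 2.58 to 14.47 for all genes. The median was 6.61 for the members and 6.74 for all genes. Of the 74, 19 lay above the upper quartile of all genes and 17 below the lower quartile. The CYP3 clan had a median of 7.07, with 21 of 37 members above the median gene, and the CYP4 clan a median of 5.66, with 13 of 32 above it. Probe sets differ in how strongly they bind their target, so these values order signals and not amounts of RNA. Background was not measured here, and members below the lower quartile may not be expressed above it.

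**Figure D1:**
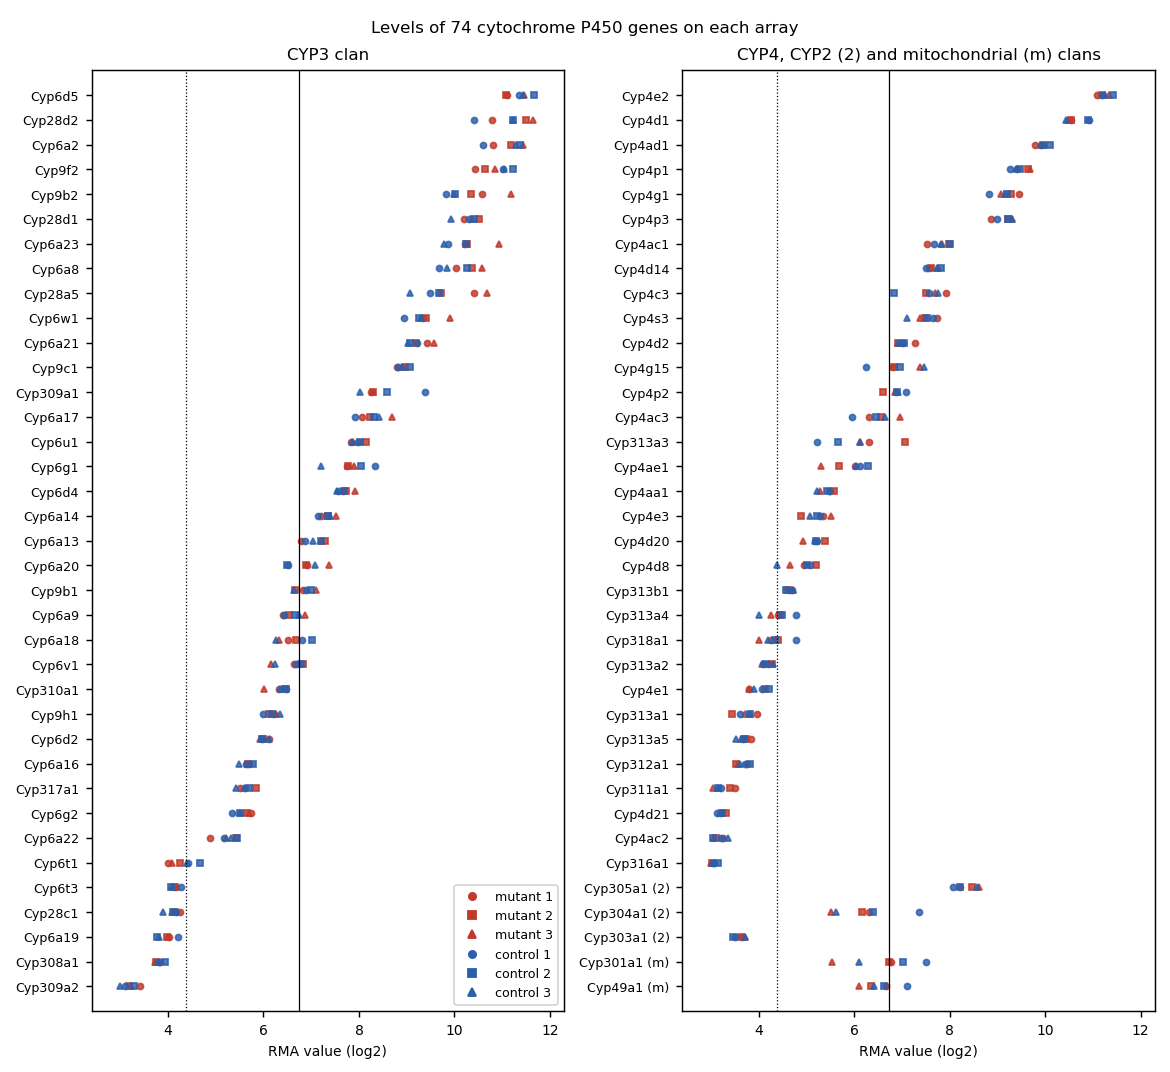
RMA value (log2, horizontal axis) of each of the 74 P450 genes on each of the 6 arrays, with mutant arrays in red, control arrays in blue and the replicate number as the symbol shape. The solid and dotted vertical lines mark the median and the lower quartile of all genes, averaged over arrays, and the member means run from 3.05 to 11.35.

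The brightest members were enzymes linked to foreign compounds or of less known function. Cyp6d5, which is induced by caffeine in adult flies, had 11.11, 11.08 and 11.45 in the mutant arrays and 11.35, 11.66 and 11.44 in the control arrays. Cyp4e2 lay between 11.10 and 11.42 on all arrays. Cyp28d2 had a mean of 11.13 and Cyp6a2, which metabolises insecticides and is induced by phenobarbital, of 11.12. These values lay between the 91.5th and the 96.6th percentile of all genes on their arrays. Cyp9f2 and Cyp4d1 followed with means of 10.87 and 10.63. Among these 6, Cyp28d2 and Cyp6a2 varied most between arrays, with ranges of 1.23 and 0.84, against 0.32 for Cyp4e2.

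The 6 dimmest members were Cyp316a1, Cyp4ac2, Cyp309a2, Cyp4d21, Cyp311a1 and Cyp303a1, with means from 3.05 to 3.62. Cyp4d21 is known as a male-enriched gene of courtship, Cyp303a1 acts in bristle and sensory organ development, and Cyp311a1 acts in the anterior midgut. Cyp4d21 stayed between the 2.76th and the 6.87th percentile of all genes on every array, and Cyp303a1 between the 8.70th and the 14.5th. Cyp6t3, which acts in ecdysteroid synthesis in the prothoracic gland, had 4.15 ± 0.02 in the mutant and 4.14 ± 0.11 in the control (SD, n = 3 each).

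Several members with a known task were well above the median gene. Cyp4g1, the decarbonylase that makes cuticular hydrocarbons in oenocytes, had 9.45, 9.28 and 9.08 in the mutant arrays and 8.82, 9.21 and 9.16 in the control arrays. Cyp28d1, a gene of nicotine resistance, had 10.36 ± 0.16 in the mutant and 10.21 ± 0.26 in the control (SD, n = 3 each). For Cyp6a8, induced by phenobarbital and caffeine, the values were 10.33 ± 0.27 and 9.92 ± 0.30. Cyp6a17, which shapes temperature preference, had 8.34 ± 0.33 and 8.22 ± 0.26. None of these 4 genes passed the test between genotypes. Members nearer to the middle or below it included Cyp310a1, known to restrain Wingless signalling, with 6.27 ± 0.23 in the mutant and 6.42 ± 0.07 in the control. Cyp6d2, linked to tolerance of camptothecin, had 6.01 ± 0.10 and 6.02 ± 0.08. Cyp4e3, linked to permethrin tolerance in the Malpighian tubules, had 5.25 ± 0.32 and 5.20 ± 0.11. Cyp6a22, a neighbour of Cyp6a17, had 5.18 ± 0.28 and 5.31 ± 0.14 (SD, n = 3 each). In these 4 genes the genotype ranges overlapped.

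Chromosome arm 2R held 31 of the 74 members (41.9%), against 20.4% of all genes with an arm. In gene order, 39 members lay in 13 groups in which each member is at most 3 places from the next. The longest group held 9 genes on 2R, Cyp6a22, Cyp6a17, Cyp6a23, Cyp6a19, Cyp6a9, Cyp6a20, Cyp6a21, Cyp6a8 and Cyp317a1, with mean values from 3.97 for Cyp6a19 to 10.22 for Cyp6a23. The probe sets of neighbours thus spanned dim and bright values, as they also did for Cyp309a1 (8.47) and Cyp309a2 (3.20) on 2L. All 74 probe sets carry suffixes that the manufacturer gives to probe sets of 1 gene, but signal shared between close paralogs was not measured here.

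The comparison of mutant with control asked which P450 genes differ between these genotypes. An effect of Kdm4A cannot be told apart from any other difference between the lines. By limma, 0 of 74 members passed an adjusted p under 0.05, where 0.159% of all genes did (19 of 11983). At an unadjusted p under 0.05 there were 7 members, or 9.46% beside 5.27% of all genes. Of these, 4 were higher in the mutant, beside 2.36% of all genes, and 3 lower, beside 2.91%. With the replicate number as a block, 0 members passed as well, beside 0.818% of all genes, and 15 (20.3%) had an unadjusted p under 0.05, beside 11.2% of all genes. The median difference of the members was 0.03, against -0.01 for all genes, and their median absolute difference was 0.11, against 0.09. No member differed by 2-fold, beside 1.34% of all genes. Among all 74 members the difference was above 0 in 39 and below 0 in 35, and 48.2% of all genes were above 0. For 66 members the unadjusted 95% interval of the difference lay within 2-fold in both directions. The 8 others, among them Cyp28a5, Cyp313a3, Cyp9b2 and Cyp301a1, have intervals that include larger changes.

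**Figure D2:**
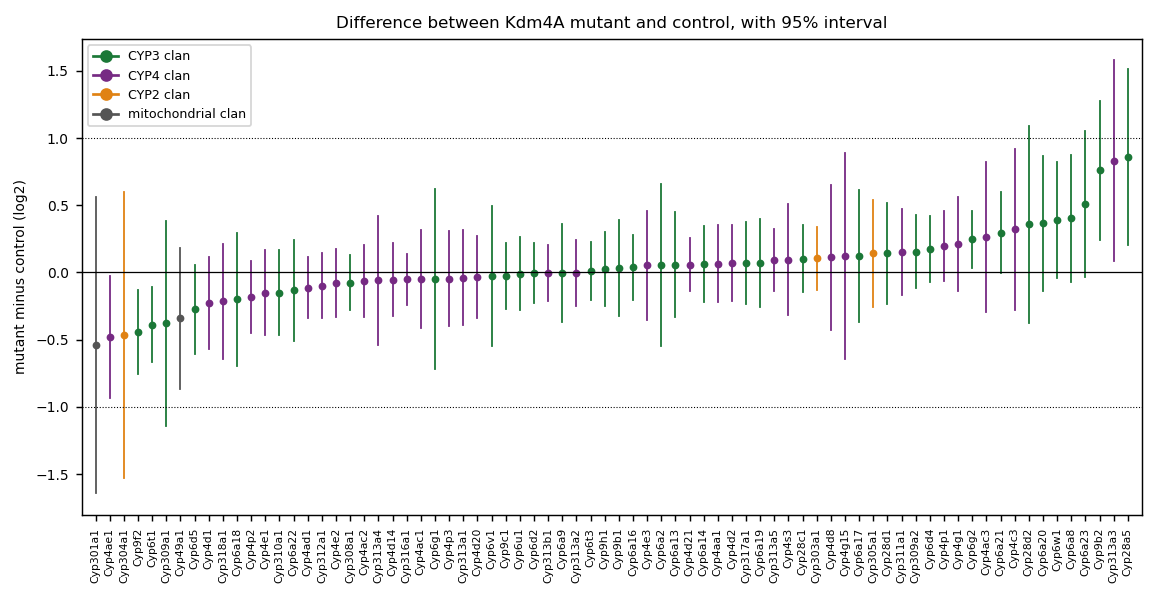
Mutant minus control difference (log2, vertical axis) of each of the 74 P450 genes, ordered by size and coloured by clan, with points for the limma estimate and lines for its unadjusted 95% interval. Dotted lines mark 2-fold in each direction, and the estimates run from -0.54 for Cyp301a1 to 0.86 for Cyp28a5.

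Within the CYP3 clan 23 of 37 members were above 0, with a median of 0.05, and in the CYP4 clan 14 of 32, with a median of -0.02. All 4 Cyp28 genes had differences above 0, from 0.10 to 0.86. In the Cyp6 family 14 of 23 genes were above 0, from -0.39 for Cyp6t1 to 0.51 for Cyp6a23. The Cyp4 family split evenly, 11 above and 11 below. Both members of the mitochondrial clan were below 0. On arm 2R, which carries Kdm4A, 18 of 31 members were above 0, with a median of 0.03 beside -0.01 for all genes of the arm.

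Cyp28a5 had the largest difference. Its family is known from desert Drosophila species for induction by cactus alkaloids. Cyp28a5 had 10.41, 9.73 and 10.68 in mutant arrays 1 to 3 and 9.48, 9.69 and 9.07 in control arrays 1 to 3. All mutant values lay above all control values, but mutant 2 and control 2 differed by 0.04 only. The difference was 0.86 (SE 0.27, limma adjusted p = 0.724, n = 3 per group), and by replicate number it was 0.93, 0.04 and 1.60.

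Cyp9b2 had 10.58, 10.34 and 11.19 in the mutant and 9.82, 10.02 and 10.00 in the control. The groups did not overlap, and mutant 3 stood highest. Its difference was 0.76 (SE 0.22, limma adjusted p = 0.609, n = 3 per group), with 0.76, 0.32 and 1.19 by replicate number. The neighbouring gene Cyp9b1 differed by 0.03.

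Cyp313a3, a CYP4 clan gene, had 6.31, 7.06 and 6.12 in the mutant and 5.23, 5.66 and 6.12 in the control. Mutant 3 and control 3 were all but equal, so the groups were apart by less than 0.01, and the differences at numbers 1 and 2 were 1.09 and 1.41. The mean difference was 0.83 (SE 0.31, limma adjusted p = 0.866, n = 3 per group), and 0.55 without mutant array 2. The adjacent Cyp313a2 differed by less than 0.01 in size.

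Further CYP3 and CYP4 clan genes, 3 in number, had lower values in all 3 mutant arrays at an unadjusted p under 0.05. Cyp9f2 had 10.43, 10.65 and 10.85 in the mutant and 11.01, 11.22 and 11.03 in the control, a difference of -0.45 (SE 0.13, limma adjusted p = 0.621). Cyp6t1, a dim gene, had 3.99, 4.25 and 4.09 against 4.42, 4.68 and 4.40, a difference of -0.39 (SE 0.12, adjusted p = 0.668). Cyp4ae1 had 6.03, 5.69 and 5.30 against 6.12, 6.30 and 6.04, a difference of -0.48 (SE 0.19, adjusted p = 0.894). In each of them the groups did not overlap, by a margin of only 0.01 for Cyp4ae1. The mutant was therefore lower at all 3 replicate numbers by construction.

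Cyp6g2, expressed in the corpus allatum, had 5.73, 5.66 and 5.70 in the mutant and 5.33, 5.51 and 5.52 in the control. The groups did not overlap, and the difference was small at 0.25 (SE 0.09, limma adjusted p = 0.821, n = 3 per group). The corpus allatum marker jhamt differed by 0.06 (SE 0.28). Cyp6g1, its neighbour and a gene of insecticide resistance, differed by -0.05 (SE 0.28).

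**Figure D3:**
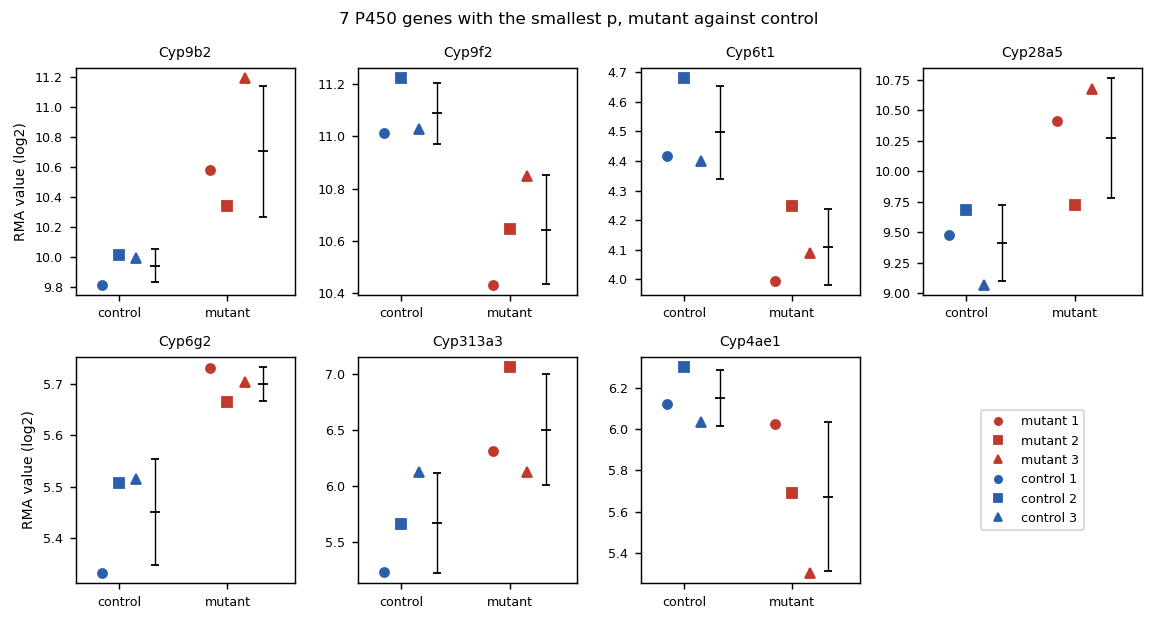
RMA values (log2, vertical axis, scaled per gene and not from 0) of the 7 P450 genes with an unadjusted p under 0.05, by genotype, with symbol shape for the replicate number and black bars for mean and SD of 3 arrays. Mutant and control values do not overlap in these 7 genes, and none passed adjustment over all genes.

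Of the 74 members, 9 had mutant and control arrays that did not overlap, which is 12.2% beside 10.3% of all genes. Apart from the 7 named, these were Cyp6w1 and Cyp4p2, with differences of 0.39 (SE 0.18) and -0.19 (SE 0.11). Members with the same sign at all 3 replicate numbers were 29, or 39.2% beside 33.7% of all genes. In 18 the mutant was higher, beside 14.5% of all genes, and in 11 lower, beside 19.2%. In the group of 9 neighbours on 2R, 7 genes had a difference above 0. There Cyp6a23 had 10.22, 10.26 and 10.93 in the mutant and 9.87, 10.25 and 9.77 in the control, a difference of 0.51 (SE 0.23, limma adjusted p = 0.966) that was 0.27 without mutant array 3. Cyp6a8 differed by 0.40 (SE 0.20) and with array weights by 0.14, Cyp6a20, a gene of male aggression, by 0.37 (SE 0.21) and Cyp6a21 by 0.30 (SE 0.12). In Cyp6a23, Cyp6a8 and Cyp6a21 the largest difference was that of number 3, with 1.16, 0.73 and 0.56.

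The remaining large differences belonged to genes that varied as much within a genotype. Cyp301a1, which acts in adult cuticle formation, had 6.77, 6.73 and 5.53 in the mutant and 7.52, 7.03 and 6.11 in the control. Its difference of -0.54 (SE 0.46, limma adjusted p = 0.998) was below 0 at each number, by -0.74, -0.30 and -0.58, and with the replicate block the adjusted p was 0.132. Cyp304a1 differed by -0.46 (SE 0.44), and Cyp309a1 by -0.38 (SE 0.32). Single arrays decided the size of these differences, since without control array 1 they were -0.23 for Cyp301a1, -0.01 for Cyp304a1 and -0.02 for Cyp309a1, and without control array 3 they were -0.93, -0.88 and -0.70. Without mutant array 3 the difference was -0.14 for Cyp301a1 and -0.22 for Cyp304a1. Cyp309a1 had 8.25, 8.30 and 8.30 in the mutant against 9.38, 8.59 and 8.02 in the control, so its mutant arrays were nearly equal while its control arrays spanned 1.36.

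Replicate numbers were compared next, since both genotypes share them. Arrays numbered 3 were set against arrays numbered 1, 2 arrays each, in a limma fit that held genotype as a term. This fit, like that with the replicate block, has 1 array for each genotype and number. Its p-values therefore rest on how far the genotype difference varies between numbers. The numbers mark pools and have no order. Of the 74 members 9 passed an adjusted p under 0.05, or 12.2% beside 8.25% of all genes, and 21 had an unadjusted p under 0.05, beside 26.4% of all genes. Of the 9, 5 were higher in arrays numbered 3, beside 4.91% of all genes, and 4 were lower, beside 3.35%. Across all 3 numbers, 2 members passed the F test, Cyp301a1 and Cyp28d2, beside 1.59% of all genes. No member passed between numbers 2 and 1, where 0% of all genes did, or between numbers 3 and 2, where 0.492% of all genes did, and 11 (14.9%) had an unadjusted p under 0.05 in each of these contrasts. Of all genes, 11.6% did so between numbers 2 and 1 and 16.8% between numbers 3 and 2. The counts for numbers 3 and 1 depended on single arrays. Without mutant array 3, control array 1 or control array 3, 0 members passed, with 15 to 19 at an unadjusted p under 0.05, and these fits called 60 to 139 genes in place of 989, whereas without mutant array 1 there were 7 members and 1092 genes. Without the genotype term 0 members and 0 genes passed, with 20 members at an unadjusted p under 0.05.

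Lower in arrays numbered 3 were 4 genes. Cyp301a1 was at 6.77 and 7.52 in mutant and control arrays numbered 1 and at 5.53 and 6.11 in those numbered 3. The difference of 3 minus 1 was -1.32 (SE 0.13, adjusted p = 0.0186), which is 2.50-fold. Cyp304a1, of the CYP2 clan, was at 6.31 and 7.36 in arrays numbered 1 and at 5.52 and 5.62 in those numbered 3, a difference of -1.26 (SE 0.24, adjusted p = 0.0411), and of -0.82 without control array 1. Within the mutant it was -0.79 and within the control -1.74, and this gap between genotypes was not tested, with 1 array for each genotype and number.

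Cyp49a1, of the mitochondrial clan, was at 6.67 and 7.11 in arrays numbered 1 and at 6.11 and 6.42 in those numbered 3, a difference of -0.63 (SE 0.10, adjusted p = 0.0335). Cyp6v1 was at 6.65 and 6.69 in arrays numbered 1, at 6.83 and 6.79 in those numbered 2 and at 6.16 and 6.24 in those numbered 3. Its numbers 1 and 2 lay close together, and 3 minus 1 was -0.47 (SE 0.10, adjusted p = 0.0493). Both genotypes gave nearly the same value of Cyp6v1 at each number.

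Higher in arrays numbered 3 were 5 genes. Cyp28d2 was at 10.78 and 10.41 in mutant and control arrays numbered 1 and at 11.64 and 11.22 in those numbered 3, higher by 0.84 (SE 0.10, adjusted p = 0.0202), and arrays numbered 2 were at 11.50 and 11.21. The adjacent Cyp28d1 differed by -0.10 (SE 0.15) in the same contrast. Cyp6a2 had the same shape, with 10.81 and 10.59 in arrays numbered 1, 11.18 and 11.38 in those numbered 2 and 11.44 and 11.29 in those numbered 3, a difference of 0.66 between 3 and 1 (SE 0.13, adjusted p = 0.0466).

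Cyp4ac3 was higher by 0.67 (SE 0.11, adjusted p = 0.0336), with 6.31 and 5.96 in arrays numbered 1 and 6.97 and 6.65 in those numbered 3. Cyp6a20 was higher by 0.52 (SE 0.10, adjusted p = 0.0424), with 6.91 and 6.50 against 7.37 and 7.08, and arrays numbered 2 at 6.90 and 6.49. Cyp4g15, a brain-expressed paralog of Cyp4g1, was higher by 0.89 (SE 0.19, adjusted p = 0.0489), with 6.81 and 6.25 against 7.38 and 7.46, and by 0.56 without control array 1. Cyp4g1 itself differed by -0.01 in this contrast. Just outside the threshold lay Cyp6a17, with a difference of 0.57 (SE 0.12, adjusted p = 0.053).

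**Figure D4:**
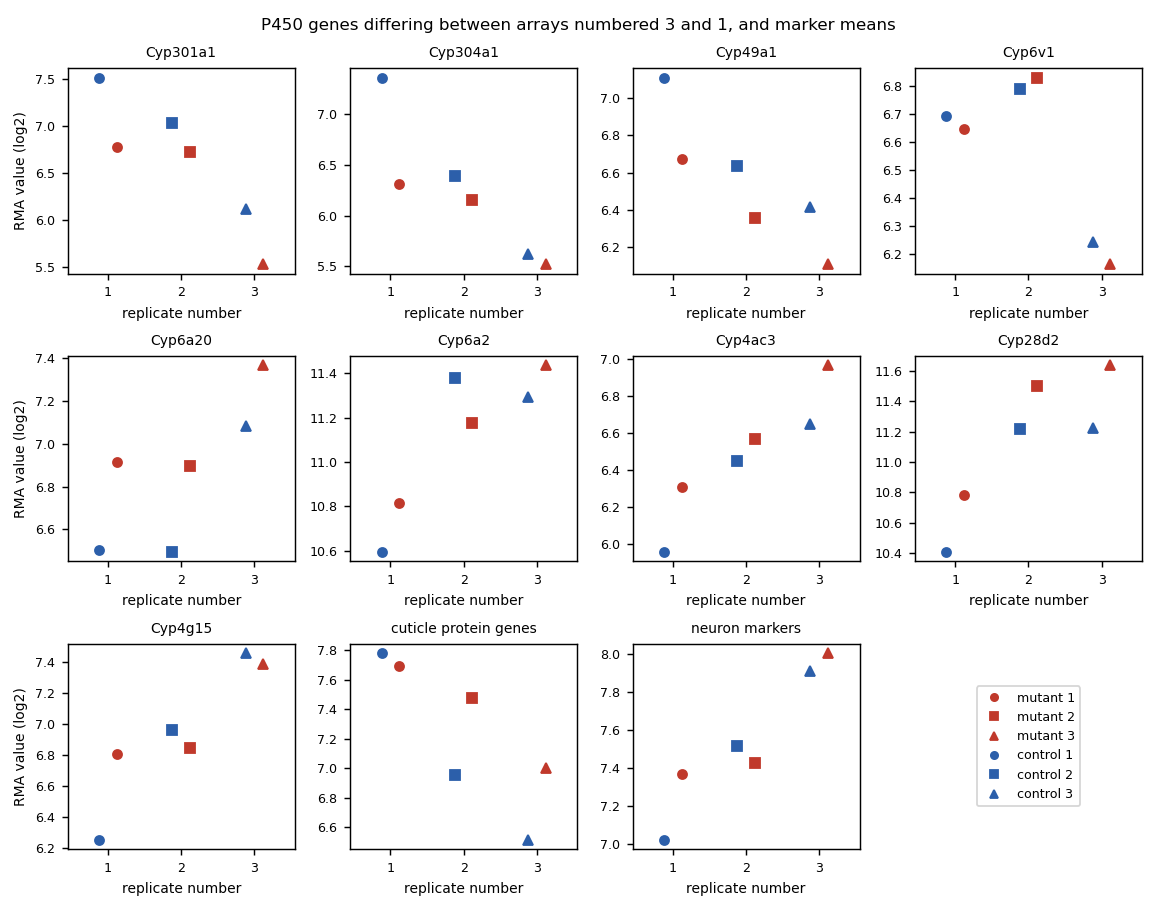
RMA values (log2, vertical axis, scaled per panel and not from 0) by replicate number for the 9 P450 genes that differed between arrays numbered 3 and 1, with mutant in red and control in blue. The panels for cuticle protein genes and neuron markers plot the mean of each list, which lies between 6.52 and 7.78 for cuticle and between 7.02 and 8.01 for neurons over the arrays.

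Marker lists and a sign of RNA quality moved with the replicate number, and their part in these results was not tested. In arrays numbered 3, against those numbered 1, 5367 of all 11983 genes were lower and 6616 higher. Of all genes, 3.35% were called lower and 4.91% higher. Of 66 cuticle protein genes of the Cpr family, 55 were lower in arrays numbered 3 than in arrays numbered 1, with 17 called lower and 1 higher. The log2 of their summed level was 15.75 and 16.07 in mutant and control arrays numbered 1, and 14.94 and 14.64 in those numbered 3. All 5 neuron markers were higher, with 3 called, and all 4 glia markers, with 2 called (repo by 0.74 and nrv2 by 0.67). The log2 of the summed neuron level was 10.20 and 9.75 in arrays numbered 1 and 10.86 and 10.69 in those numbered 3, and for glia it was 12.37 and 12.03 against 12.76 and 12.85. The actin 3′ to 5′ gap was 2.39 and 2.34 in arrays numbered 1, and between 1.53 and 1.84 in the other 4.

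The genes of cytochrome b5 and of its own reductase, and the regulators of the P450s, showed no called change. The gene of the reductase that passes electrons to the P450s themselves was not in the list and has no value here. Cyt-b5, the cytochrome b5 gene, differed by less than 0.01 between genotypes (SE 0.10) at a mean of 12.93, and its reductase gene Cyt-b5-r by 0.35 (SE 0.28). Of 6 regulators of the response to foreign compounds, 0 passed by limma between genotypes, with 0 at an unadjusted p under 0.05, and 0 between arrays numbered 3 and 1, with 1 at an unadjusted p under 0.05. Their median genotype difference was -0.02. Among them cnc, which encodes the main activator of detoxification genes, differed by 0.03 (SE 0.12), its partner maf-S by -0.02 (SE 0.15), its inhibitor Keap1 by -0.13 (SE 0.14) and the nuclear receptor gene Hr96 by -0.18 (SE 0.11). Between genotypes, P450 genes outside the rule gave 0 called of 12, with 3 at an unadjusted p under 0.05, beside 5.27% of all genes. Of all genes 48.2% were above 0, and of these 12 P450 genes 10 were. One of them, the mitochondrial Cyp12a5, named after its values were seen, had 8.17, 8.17 and 8.99 in the mutant and 7.02, 6.91 and 6.74 in the control. Its groups did not overlap, and the difference was 1.55 (SE 0.23, limma adjusted p = 0.0981, and 0.0596 with the replicate block), the 1 difference of 2-fold or more in this list. Of 34 glutathione S-transferases 28 were below 0, beside 6205 of all 11983 genes, with a median of -0.17. Of the 34, 0 were called and 8 (23.5%) had an unadjusted p under 0.05, beside 5.27% of all genes. UDP-glycosyltransferases had a median of less than 0.01, with 1 of 35 called, Ugt35B1, beside 0.159% of all genes. Of the 35, 6 (17.1%) had an unadjusted p under 0.05. With the replicate block 1 glutathione S-transferase was called, GstD3, with a difference of -0.95 (adjusted p = 0.0232), and 2 UDP-glycosyltransferases, Ugt35B1 and Ugt35E2. The fit with the block called 0.818% of all genes. Between arrays numbered 3 and 1, 1 of the 12 P450 genes outside the rule was called lower, beside 3.35% of all genes. In that contrast 11.8% of the glutathione S-transferases and 8.57% of the UDP-glycosyltransferases were called, beside 8.25% of all genes.

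Tissue markers of the organs that hold P450s did not pass between genotypes. In the midgut, Malpighian tubule, fat body and oenocyte lists 0 of 6, 0 of 6, 0 of 5 and 0 of 4 markers were called by limma, with 0, 1, 0 and 1 at an unadjusted p under 0.05. Of all genes, 0.159% were called and 5.27% had an unadjusted p under 0.05. The log2 of the summed oenocyte level was 9.29, 9.31 and 9.32 in mutant arrays 1 to 3 and 8.80, 9.15 and 9.29 in control arrays 1 to 3. Cyp4g1 was also lowest on control array 1. In mutant arrays 1 to 3 it had 9.45, 9.28 and 9.08, in the opposite order to the oenocyte sums. Malpighian tubule levels were 10.63 to 10.88 in the mutant and 10.57 to 10.72 in the control, with ZnT35C highest among its differences at 0.80 (SE 0.33, limma adjusted p = 0.923). For the midgut list the sums were 14.23 to 14.45 in the mutant and 14.20 to 14.65 in the control. Between arrays numbered 3 and 1, 1 Malpighian tubule and 1 fat body marker were called higher, beside 4.91% of all genes. No midgut or oenocyte marker was called in that contrast, and 5 of 6 midgut markers were lower. Of the 66 cuticle protein genes, 49 were above 0 between genotypes, beside 48.2% of all genes, with a median of 0.18. Of these 66, limma called 1 higher and 0 lower, beside 0.159% of all genes. By 2-fold or more, 7 were higher and 1 lower, beside 1.34% of all genes.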

How the data were processed

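Total RNA of whole 1st instar larvae was hybridised to Affymetrix arrays, and the authors deposited log2 values that RMA gave for each probe set, according to the submitters' processing notes. The log2 scale of the deposited values was inferred from their range. RMA equalises the distributions of the arrays and hides any shift common to most genes. The number of arrays limits the precision. Probe sets that name 1 gene in the platform table of 2016 were used, with the highest mean over the 6 arrays per gene ID (11983 genes). Release 6 was used only for names, arms and gene order. limma 3.58.1 in R 4.3.3 (lmFit, eBayes, two-sided) was fitted over all genes with Benjamini-Hochberg adjustment, by genotype, and by replicate number with genotype as a term. Plots used matplotlib 3.10.9, and the fits were tested on simulated data. The members, lists and alternatives were chosen with earlier results of these data known. Named were Kdm4A, members called in any fit, the 12 largest genotype differences, the 6 brightest, the 6 dimmest, and members with a known role. Other genes are named as their neighbours or beside a count, after their values were seen. Arrays that share number 1 or 3 in the titles deviated together from their group means (correlations 0.684 and 0.756 over all genes, and 0.631 and 0.477 over the members). For number 2 the correlations were only 0.152 and 0.147. Over all genes mutant 2 correlated more with control 1 (0.354), and over the members control 2 correlated about as much with mutant 3 (0.151). The number was used as a block in an alternative fit. The correlations of the 3 numbers are not separate supports, since deviations within a group sum to 0. No sequences are shown.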

Additional observations from a re-analysis of the deposited data

Results flagged for a closer look

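One probe set that names both Cyp6v1 and shn was left out of the gene comparison because it names more than 1 gene. It had 8.51, 8.55 and 8.73 in the mutant arrays and 8.00, 7.98 and 8.28 in the control arrays, so every mutant value lay above every control value. The difference was 0.51 (SE 0.12, limma adjusted p = 0.346 over 18769 probe sets, and 0.0661 with the replicate block), and the probe set naming Cyp6v1 alone differed by -0.03 (SE 0.22). Groups of 3 arrays were too small to look for outlying arrays.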

How the results depend on the processing

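The count of 0 members called between genotypes held under all 17 alternatives, the replicate block, array weights and each left-out array among them, with 3 to 15 members at an unadjusted p under 0.05. The 218 refits of 13 single genotype differences kept their sign and their side of the threshold, but 21 of them, in 9 members, moved the size by over 1.5 times. Settings such as the replicate block or the upper 60% of genes by mean value return the same estimate, so the sign could not change there. With 1 array left out Cyp301a1 ranged from -0.93 to -0.14, Cyp304a1 from -0.88 to -0.01 and Cyp309a1 from -0.70 to -0.02, Cyp4ae1 reached -0.29 and Cyp6w1 0.21 without mutant array 3, Cyp28a5 was at 0.49 without both arrays numbered 3, and array weights gave 0.26 for Cyp6a23. Between numbers 3 and 1, Cyp304a1 was at -0.82 and Cyp4g15 at 0.56 without control array 1. Of the 9 members called between numbers 3 and 1, 0 remained without the genotype term, and 0 to 9 passed with 1 array left out. The 2 members called across all numbers became 0 among the upper 60% of genes, 0 without the genotype term, and 0 to 3 with 1 array left out. Leaving out an array of number 1 or 3 leaves 1 array there. No difference between numbers changed sign, though settings such as array weights or no genotype term return the same estimate and could not change it. Of 126 refits, 48 lost the call. With all arrays and the genotype term kept, Cyp4g15, Cyp6a2 and Cyp6v1 still lost it under some settings, with limma adjusted p up to 0.0614. Apart from these constructions, the cause was not tested. The replicate block changed no call among the members, and it moved the count over all genes from 19 to 98. Array weights gave 82 genes, the upper 60% of genes 11, and leaving out both arrays numbered 1 or 2 gave 0. Dim members limit what the arrays can show.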
